A study of Mus musculus with 4 samples.

Results

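Telomerase and the proteins that coat telomeres were followed through 8 genes in mouse fibroblasts, induced pluripotent stem (iPS) cells and embryonic stem (ES) cells. The genes were Tert, Dkc1, Terf1, Terf2, Tinf2, Acd, Pot1a and Rif1, taken by name, and all probes that the array files give under those names were used. This gave 15 probes, of which 12, with at least 1 for each gene, passed the filter on dim and marked spots. They stood among 24874 tested probes of 17620 named genes or transcripts. RNA of mouse embryonic fibroblasts (MEFs), harvested after several passages, was labelled red (Cy5) on 2 arrays, and RNA of an iPS cell clone, harvested 30 days after transduction, was labelled red on 2 others. RNA of the ES cell line CGR8.8 was labelled green (Cy3) on all 4 arrays and served as the common control. LIF (leukemia inhibitory factor), a cytokine that keeps mouse stem cells undifferentiated, had been in the medium of the ES and iPS cells at 1000 IU/ml. The labels give no strain and do not name the transduced factors, the iPS cells are a single clone, and it is not stated whether replicates came from separate cultures, so a p-value here reflects only how these samples varied, which may be technical.

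Telomeres are the repeated DNA ends of chromosomes, which shorten when cells divide unless telomerase rebuilds them. Telomerase joins the reverse transcriptase Tert to the RNA template Terc and to dyskerin, encoded by Dkc1, which holds the RNA in a stable particle. Shelterin coats the repeats: Terf1 and Terf2 bind the double-stranded part, Pot1a binds the single-stranded overhang, and Tinf2 and Acd (TPP1) link them. Pluripotent stem cells keep telomerase active, and telomeres of reprogrammed mouse fibroblasts are known to lengthen.

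Each value below is a log2 ratio of red over green, so a value of -1 means that the red RNA gave a signal 2-fold below that of ES cells on the same array. Errors after ± are standard errors of the limma fit over all 4 arrays (n = 2 arrays per group), and p-values were adjusted by Benjamini-Hochberg over all 24874 probes. A call, higher or lower, needed an adjusted p under 0.05 and a 2-fold or larger change. Dyes were not swapped, so ratios over ES cells keep any dye effect of a probe, which drops out between iPS cells and MEFs. The share of gene probes well above background was 62.0% to 63.4% in green and 61.1% to 63.2% in red. Replicate arrays correlated at 0.989 (MEFs) and 0.992 (iPS cells) across probes, and among 245 probes printed repeatedly they differed by over 2 standard errors of their spots for 45.5% (MEFs) and 20.8% (iPS cells). Of the 8 genes that mark pluripotent cells in the lists used, 7 could be tested. All 7 were lower in MEFs (median -3.79), against 13.6% of all tested genes. In iPS cells 4 of these were above ES cells, against 9.08% of all tested genes, and Pou5f1 was below them (-1.35 ± 0.078). Among 10 fibroblast markers, 7 could be tested and 6 were higher in MEFs (median 4.32). In iPS cells 5 of these 7 were lower than in ES cells and 0 were higher (median -1.92). Of all 24874 tested probes, 3174 were higher in MEFs and 2663 were lower in iPS cells. RNA of those 5 markers was thus higher in the ES control than in the iPS clone, and its part in the members' ratios was not tested.

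In fibroblasts the double-strand binder Terf1, the associated protein Rif1, the overhang binder Pot1a, the linker Tinf2 and dyskerin each had a probe below ES cells by the call rule, from 2.43-fold (Dkc1) to 8.36-fold (Rif1). Tert and Acd, both dim, did not reach a 2-fold difference in any comparison. The iPS clone was close to ES cells at most of these probes, and 1 probe of Dkc1 was above them by 2.32-fold. By the brightest tested probe of each gene, 4 of 8 genes were lower in MEFs, against 13.6% of all tested genes. Dkc1 was not among them, since its brighter probe (-0.88) stayed under 2-fold. Over the 12 tested probes, 6 were lower in MEFs than in ES cells, 0 were higher and 6 were not called, against 12.4% of all tested probes called lower. In iPS cells 1 of 12 was called higher, against 8% of all tested probes, so this share is near the background. Between iPS cells and MEFs 8 of 12 were higher in iPS cells, against 15.4% of all tested probes. The medians of the 12 probes were -1.08, 0.34 and 1.87 in the 3 comparisons, where the medians of all tested probes were -0.01, -0.01 and 0.01. These counts describe the probes and are not a test of the set. With the background model fitted over all spots instead, limma called 0 of 12 in each comparison with MEFs, where 1 (over ES cells) and 2 (iPS cells over MEFs) had an unadjusted p under 0.05.

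**Figure D1:**
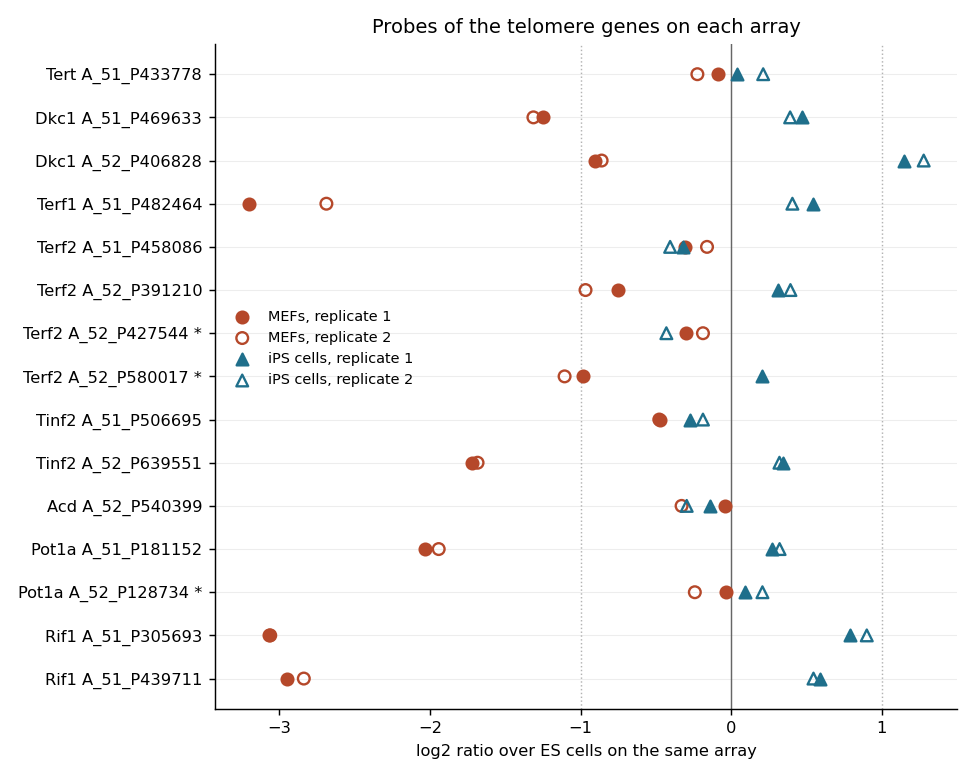
Log2 ratio over ES cells (horizontal axis) of each of the 15 probes (rows) on each array, MEFs as circles and iPS cells as triangles, with replicate 1 filled and replicate 2 open. Dotted lines mark 2-fold, an asterisk marks the 3 probes that were not tested, and the MEF points of Terf1, Rif1 and the brighter probes of Pot1a and Tinf2 lie left of -1.6 while no iPS point lies left of -0.43.

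Tert, the catalytic subunit of telomerase, was read by 1 probe on chromosome 13 (mm8, 74114983 to 74115042). Its raw signals were low. In green, ES cells gave 108, 110, 112 and 117 over local backgrounds of 13 to 19, and in red the MEF arrays gave 193 and 149 and the iPS arrays 197 and 226 over local backgrounds of 48 to 54. The probe was still well above background in every RNA. The log2 ratios were -0.09 and -0.22 in MEFs and 0.04 and 0.21 in iPS cells, so the groups did not overlap but lay close together. The fit gave -0.16 ± 0.062 for MEFs (adjusted p = 0.0473), 0.13 ± 0.062 for iPS cells (adjusted p = 0.0973) and 0.28 ± 0.087 for iPS cells over MEFs (95% interval 0.08 to 0.49, adjusted p = 0.0192). None of these reached 2-fold, and the value for MEFs turned to 0.01 when arrays were centred on their median in place of loess. A fixed 50 units had been added to each background-corrected signal, which pulls the ratio of a probe this dim towards 0.

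Dkc1 was read by 2 probes on the X chromosome, 1 listed from 71353233 to 71353722 (A_51_P469633) and 1 further along the forward strand from 71361854 to 71361913 (A_52_P406828). The first covers a span of 490 bases with 60 bases of sequence, and is shown to place it in the gene:
Dkc1 A_51_P469633: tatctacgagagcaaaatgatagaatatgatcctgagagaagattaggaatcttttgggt
It read -1.25 and -1.31 in MEFs and 0.47 and 0.39 in iPS cells. MEFs were 2.43-fold below ES cells (-1.28 ± 0.050, adjusted p = 2.78e-07), and iPS cells were 3.28-fold above MEFs (1.71 ± 0.070, adjusted p = 4.3e-07). The second probe read -0.90 and -0.86 in MEFs and 1.15 and 1.28 in iPS cells. Here MEFs stayed under the 2-fold rule (-0.88 ± 0.052, 95% interval -1.0 to -0.76), and iPS cells exceeded ES cells by 2.32-fold (1.22 ± 0.052, adjusted p = 6.51e-07). On every array the second probe read above the first, by 0.35 and 0.45 in MEFs and by 0.68 and 0.89 in iPS cells. Both probes put iPS cells above ES cells and MEFs below them, and they differ on which of these steps passes 2-fold.

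Terf1 (TRF1), which binds double-stranded telomere repeats, had 1 probe on chromosome 1 (15828263 to 15828322). The log2 ratios were -3.21 and -2.69 in MEFs and 0.54 and 0.41 in iPS cells. The MEF arrays differed from each other by more for this gene than for the other called probes, and both lay far below all iPS values. Raw red signals were 569 and 684 on the MEF arrays and 6860 and 6680 on the iPS arrays, while green stayed between 3050 and 3230. MEFs were 7.71-fold below ES cells (-2.95 ± 0.11, adjusted p = 2.44e-07) and iPS cells 10.7-fold above MEFs (3.42 ± 0.16, adjusted p = 7.81e-07). iPS cells exceeded ES cells by 0.48 ± 0.11 (adjusted p = 0.0059), which is 1.39-fold and not a call.

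Terf2 (TRF2), the second double-strand binder, which protects chromosome ends from fusing, had 4 probes on chromosome 8, listed on the reverse strand. They fell into pairs by position. In the direction of transcription A_52_P580017 (109966048 to 109966107) comes first and A_52_P391210 (109965930 to 109965989) 118 bases later, followed after 6360 bases by A_52_P427544 (109959570 to 109959629) and after a further 1039 bases by A_51_P458086 (109958531 to 109958540, which covers only 10 of its 60 bases). The first 3 sequences are shown because the upstream and downstream probes gave different answers:
A_52_P580017: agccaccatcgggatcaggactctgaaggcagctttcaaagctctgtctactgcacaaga
A_52_P391210: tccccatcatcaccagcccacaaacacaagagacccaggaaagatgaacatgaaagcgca
A_52_P427544: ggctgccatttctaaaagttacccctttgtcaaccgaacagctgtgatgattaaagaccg
The upstream probe A_52_P391210 read -0.75 and -0.97 in MEFs and 0.31 and 0.39 in iPS cells, with no overlap. Its neighbour A_52_P580017 read -0.98 and -1.11 in MEFs and 0.20 in iPS replicate 1, and its spot on the other iPS array was marked as an outlier. Downstream, A_52_P427544 read -0.30 and -0.19 in MEFs and -0.43 in iPS replicate 2, with a marked spot on the other iPS array, and A_51_P458086 read -0.31 and -0.16 in MEFs and -0.32 and -0.41 in iPS cells. So the upstream pair separated MEFs from iPS cells, and at the downstream pair the iPS values lay below the MEF values.

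In the fit, A_52_P391210 was 2.32-fold higher in iPS cells than in MEFs (1.21 ± 0.090, adjusted p = 1.04e-05), while MEFs were 0.86 ± 0.064 below ES cells, under 2-fold. A_51_P458086, the brighter probe that stands for the gene where 1 probe per gene is used, gave -0.13 ± 0.079 between iPS cells and MEFs (95% interval -0.32 to 0.06, adjusted p = 0.173). Its values over ES cells were -0.24 ± 0.056 in MEFs and -0.36 ± 0.056 in iPS cells, both small, and the MEF value turned to 0.07 under median centring. The probes with 1 marked spot were admitted in an added fit that used their 3 remaining arrays. There A_52_P580017 was lower in MEFs than in ES cells (-1.04 ± 0.056, adjusted p = 5.88e-06) and higher in iPS cells than in MEFs (1.25 ± 0.096, adjusted p = 4.04e-05). This last test has 1 iPS array, so its spread comes from the MEF arrays and the other probes alone, and the iPS value is assumed to vary like the MEF values. A_52_P427544, also with 1 iPS array, gave -0.19 ± 0.094 between iPS cells and MEFs (adjusted p = 0.112). Within each array, A_52_P391210 minus A_51_P458086 was -0.44 and -0.81 in MEFs and 0.63 and 0.80 in iPS cells, so the probes of this gene did not move by the same amount. Which transcripts each probe reads was not tested.

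**Figure D2:**
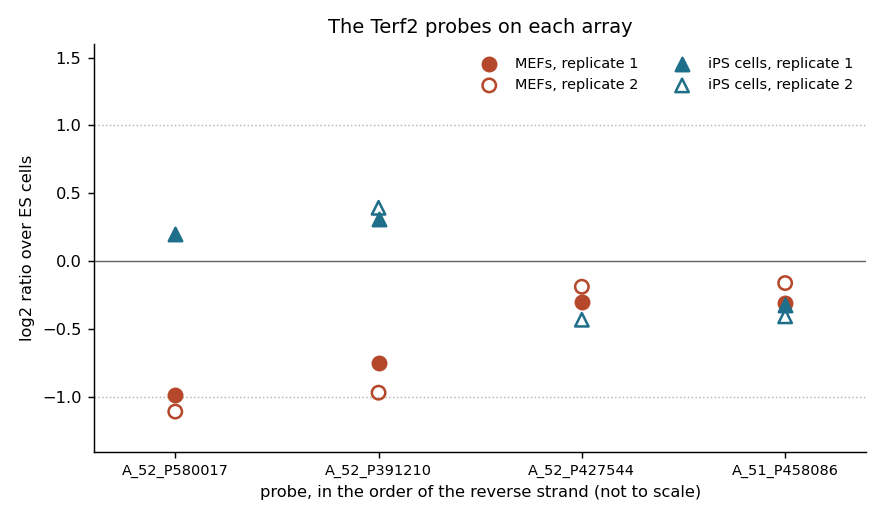
Log2 ratio over ES cells (vertical axis) of the 4 Terf2 probes, in the order of the reverse strand from left to right, with MEFs as circles and iPS cells as triangles and replicate 1 filled. Dotted lines mark 2-fold, the MEF points of the first 2 probes lie between -1.11 and -0.75 below their iPS points, and all points of the last 2 probes lie between -0.43 and -0.16.

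Tinf2 (TIN2), which ties Terf1 and Terf2 to the other shelterin subunits, had 2 probes on chromosome 14. The brighter probe, A_52_P639551, is listed from 54633422 to 54633585, a span of 164 bases:
Tinf2 A_52_P639551: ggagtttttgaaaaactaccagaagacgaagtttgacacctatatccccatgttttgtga
It read -1.72 and -1.68 in MEFs and 0.34 and 0.32 in iPS cells. MEFs were 3.25-fold below ES cells (-1.70 ± 0.046, adjusted p = 5.1e-08) and iPS cells 4.09-fold above MEFs (2.03 ± 0.066, adjusted p = 1.29e-07). The other probe, A_51_P506695 (54632801 to 54632860), was dim, with raw green signals of 49.6 to 60.5, and was not well above background in MEFs on either array. Its level in MEFs was 1.4-fold below that in ES cells, with measured log2 levels of 6.19 and 6.68, and background limits this value. The fit gave -0.475 ± 0.049 for MEFs (95% interval -0.59 to -0.36, adjusted p = 5.76e-05). In iPS cells it read -0.27 and -0.19, below ES cells, so the dim and the bright probe differ in sign there by values under 2-fold.

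Acd (TPP1), which joins Pot1a to Tinf2 and brings telomerase to the telomere, had 1 probe on chromosome 8 (108588890 to 108588949). It was also dim, with raw green signals of 52.2 to 63.1. The log2 ratios were -0.04 and -0.33 in MEFs and -0.14 and -0.29 in iPS cells, so the groups overlapped. The fit gave -0.18 ± 0.078 for MEFs, -0.22 ± 0.078 for iPS cells and -0.03 ± 0.11 between them (95% interval -0.29 to 0.23, adjusted p = 0.79). That interval holds no 2-fold difference on the scale with the added 50 units, and it does not show that the levels were equal.

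Pot1a, which binds the single-stranded overhang, had 2 probes on chromosome 6. A_51_P181152 (25693988 to 25694047) was the brightest of all the members' probes that could be tested:
Pot1a A_51_P181152: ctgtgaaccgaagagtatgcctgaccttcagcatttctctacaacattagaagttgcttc
Its raw red signals were 3720 and 3190 on the MEF arrays and 15300 and 17600 on the iPS arrays, with green between 7520 and 8080. The log2 ratios were -2.03 and -1.94 in MEFs and 0.27 and 0.32 in iPS cells. MEFs were 3.96-fold below ES cells (-1.99 ± 0.050, adjusted p = 3.5e-08) and iPS cells 4.87-fold above MEFs (2.28 ± 0.070, adjusted p = 1.04e-07). The second probe, A_52_P128734 (25743722 to 25743781), was not well above background in any of the 3 RNAs, gave raw green signals of 19.6 to 24.1, and was not tested. Mice carry a close copy, Pot1b, whose probe was not well above background in MEFs on either array. Its level there was 1.43-fold below that in ES cells, with measured log2 levels of 6.12 and 6.64, and background limits this value. The fit gave -0.48 ± 0.058 for MEFs (adjusted p = 0.000142) and -0.13 ± 0.058 for iPS cells, both over ES cells. Whether RNA of the copy reaches the Pot1a probe was not tested.

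Rif1, which acts in replication timing and at damaged telomeres and is known as a partner of the pluripotency network in mouse ES cells, had 2 probes on chromosome 2. A_51_P439711 lies at 51933098 to 51933157 and A_51_P305693 further along at 51943715 to 51943774. The first is shown:
Rif1 A_51_P439711: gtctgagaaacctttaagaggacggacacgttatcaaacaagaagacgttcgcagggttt
A_51_P439711 read -2.95 and -2.84 in MEFs and 0.59 and 0.55 in iPS cells, and A_51_P305693 read -3.07 and -3.06 in MEFs and 0.79 and 0.90 in iPS cells. The 2 probes thus ordered the 3 RNAs alike. MEFs were 7.43-fold (adjusted p = 8.6e-09) and 8.36-fold (adjusted p = 6.91e-09) below ES cells. iPS cells were 11-fold (3.46 ± 0.072) and 15.0-fold (3.91 ± 0.071) above MEFs. Over ES cells the iPS clone gave 0.57 ± 0.051 and 0.85 ± 0.050, which are 1.48-fold and 1.80-fold, and the second of these reached a call (1.21) under median centring.

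On the scatter of all tested probes most members fall into 3 places. Rif1 and Terf1 lie at the low end for MEFs, with Pot1a, Tinf2 and 1 Dkc1 probe between them and the centre, and Tert, Acd, the dim Tinf2 probe and the downstream Terf2 probe lie near 0 on both axes. The upstream Terf2 probe (-0.86 and 0.35) and the second Dkc1 probe lie apart from these. The second Dkc1 probe is the only tested member probe past 2-fold on the iPS axis under the setting reported. The axes share the ES RNA of the green channel, so no relation between them was computed.

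**Figure D3:**
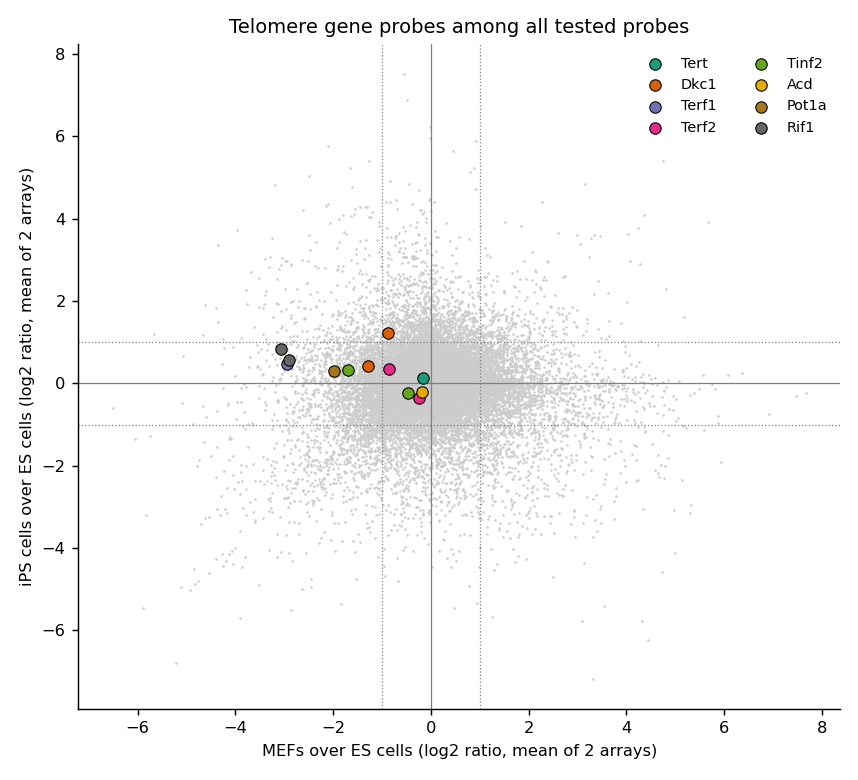
MEFs over ES cells (horizontal) against iPS cells over ES cells (vertical), log2 ratios averaged over 2 arrays each, for all 24874 tested probes in grey and the 12 member probes in colour. Dotted lines mark 2-fold, and 6 member points lie left of -1 with 1 above 1.

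Normalized levels per channel place the groups in order for each probe, with the caution that the red and green dyes were never exchanged. Rif1 (A_51_P439711) stood at a log2 level of 12.04 ± 0.019 in iPS cells (SD, n = 2), 11.42 ± 0.064 in ES cells (SD, n = 4) and 8.48 ± 0.13 in MEFs (SD, n = 2). For Terf1 the order was the same, with 12.47 ± 0.11 in iPS cells, 11.93 ± 0.081 in ES cells and 8.91 ± 0.34 in MEFs. Pot1a gave 13.68 ± 0.033, 13.34 ± 0.057 and 11.30 ± 0.028 in that order. In these 3 genes every step of the order exceeded the spread between arrays. Tinf2 (A_52_P639551) gave 10.51 ± 0.16 in iPS cells and 10.24 ± 0.11 in ES cells, which differ by about the sum of their SDs, and 8.60 ± 0.014 in MEFs. Such SDs leave out the pairing of the 2 RNAs on each array, where its iPS log2 ratios were 0.34 and 0.32. Tert gave 7.67 ± 0.11 in iPS cells, 7.46 ± 0.092 in ES cells and 7.22 ± 0.12 in MEFs, where neighbours differ by about the sum of their SDs. Acd gave 6.81 ± 0.11 in ES cells, 6.65 ± 0.17 in iPS cells and 6.56 ± 0.086 in MEFs, and these neighbours do not differ beyond their spread.

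Promoter windows of 300 bases, 250 before to 50 after the annotated start, were in the RefSeq table for 6 of the 8 genes (build GRCm38.p6). Windows for Terf1 and Rif1 were not used here. 4 motifs were searched on both strands. The E-box motif (CACGTG) was held by 7.15% of all 32851 windows, the GC box (GGGCGG) by 35.7%, the motif CCAAT by 37.4% and the motif TATAAA, known as the TATA box, by 13.6%. Each motif was counted on its own, overlap with another allowed. None of the 6 genes' windows held the E-box. GGGCGG stood in the windows of Tert (2 matches), Terf2 and Pot1a, CCAAT in those of Dkc1, Terf2 and Acd, and TATAAA in that of Dkc1. After the sequences had been seen, TGACGTCA, the full cAMP response element, was searched too. It was in the windows of Pot1a and Tinf2, and in 1.79% of all windows. Because it was chosen with the members' windows in view, that share is no fair comparison for them. A link to the ratios was not tested. The windows of these 2 genes and of Tert, which was not called, are printed up to the first base of the transcript, with GGGCGG and TGACGTCA, on either strand, in capitals:
Pot1a, chr6:25809218-25809468, reverse strand: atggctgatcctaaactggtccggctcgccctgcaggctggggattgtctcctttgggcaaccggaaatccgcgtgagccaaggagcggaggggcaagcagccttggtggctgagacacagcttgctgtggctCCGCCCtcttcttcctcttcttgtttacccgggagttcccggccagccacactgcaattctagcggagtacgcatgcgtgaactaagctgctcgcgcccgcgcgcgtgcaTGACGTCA
Tinf2, chr14:55681817-55682067, reverse strand: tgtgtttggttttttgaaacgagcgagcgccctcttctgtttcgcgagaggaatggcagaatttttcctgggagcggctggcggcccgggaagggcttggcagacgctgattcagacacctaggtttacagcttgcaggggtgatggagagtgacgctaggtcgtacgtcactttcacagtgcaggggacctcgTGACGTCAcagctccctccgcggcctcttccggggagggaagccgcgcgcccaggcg
Tert, chr13:73626661-73626911, forward strand: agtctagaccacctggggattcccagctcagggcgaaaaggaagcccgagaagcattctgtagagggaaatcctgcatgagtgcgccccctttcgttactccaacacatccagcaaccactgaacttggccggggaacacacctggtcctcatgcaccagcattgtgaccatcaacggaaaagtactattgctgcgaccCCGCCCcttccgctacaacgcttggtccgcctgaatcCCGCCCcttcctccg
The match in Pot1a begins 7 bases before the start and that in Tinf2 56 bases before it. A match of letters is a description of these windows and not a binding site.

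The partners of these proteins were taken as a list of 54 other telomere genes, of which 52 were on the array and 51 were tested, each by its brightest probe. In MEFs 23 were below ES cells, 1 was above and 27 were not called, against 13.6% of all tested genes called lower and 27.4% called in either direction. The list's median was -0.85, where that of all genes was -0.01. In iPS cells 9 were above ES cells, 2 were below and 40 were not called, against 9.08% of all genes called higher and 20.9% called in either direction, with a median of 0.14. Between iPS cells and MEFs 25 were higher in iPS cells, 3 were lower and 23 were not called, against 17% of all genes higher and 35.8% called in either direction, with a median of 0.98. With the background model fitted over all spots, limma called 0, 3 and 10 of the 51 in the 3 comparisons. There 10, 24 and 30 had an unadjusted p under 0.05, and the share of all genes under that p is not given here. Of all 24874 tested probes, that setting called 100, 3317 and 2726. With median centring in place of loess 15 were lower and 2 higher in MEFs, and 14 were higher and 1 lower in iPS cells than in ES cells.

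Of 11 tested genes of the telomerase particle, 5 were lower in MEFs, 0 differed by a call between iPS and ES cells, and 5 were higher in iPS cells than in MEFs. The shares of all tested genes were 13.6%, 20.9% and 17%. Between iPS and ES cells limma gave all 11 an unadjusted p under 0.05. The share of all tested genes under that p is not given here, so this count does not set the group apart. The ratios ran from -0.61 to 0.70, all under 2-fold, though Nop10 (1.27), Ruvbl2 (1.07) and Wrap53 (1.1) reached a call under median centring. Gar1, which joins dyskerin in the particle, was lowest in MEFs (-2.04 ± 0.069), and its partner Nhp2 read -1.38 ± 0.050, which was -0.64 and not called when arrays were centred on their median. Nop10, the third partner, did not pass (-0.13 ± 0.055 in MEFs, 0.70 ± 0.055 in iPS cells). Wrap53, which carries the particle to Cajal bodies, read -1.54 ± 0.052 in MEFs and 2.04 ± 0.073 in iPS cells over MEFs. Terc, the RNA template, was not called in any comparison, with 0.05 ± 0.054 in MEFs, 0.45 ± 0.054 in iPS cells and 0.40 ± 0.076 between them. The telomerase genes called between iPS cells and MEFs thus include Dkc1, Gar1 and Nhp2, and neither Tert nor Terc. The Tert probe was dim, and the constant added to each signal pulls its ratio towards 0. Under 17 other settings, an offset of 0 among them, its ratio of iPS cells over MEFs ran from 0.20 to 0.60, under 2-fold. A second Terc probe was not well above background in ES cells or MEFs, so background limits its ratios. By it, iPS cells were at least 1.68-fold above ES cells and at least 1.66-fold above MEFs. The missing calls do not show that Tert or Terc levels were equal.

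Among 9 shelterin partners, 2 were lower in MEFs and 1 was lower in iPS cells than in ES cells. For comparison, 13.6% of all tested genes were lower in MEFs, and 2663 of all 24874 tested probes were lower in iPS cells. Terf2ip (RAP1), which binds Terf2, was not called, with 0.08 ± 0.052 in MEFs and 0.54 ± 0.052 in iPS cells. The helicase Rtel1 lay just past the threshold in MEFs (-1.0 ± 0.048), and its call ended without MEF replicate 1 (-0.99) and under median centring (-0.76). Fbxo4, which is known to target Terf1 protein for degradation, had RNA ratios opposite in sign to those of Terf1, and a link was not tested. Fbxo4 read 0.95 and 0.98 in MEFs, which was not a call, and -1.93 and -1.91 in iPS cells. It was lower in iPS cells than in ES cells (-1.92 ± 0.046, adjusted p = 3.88e-08) and than in MEFs (-2.89 ± 0.065, adjusted p = 2.7e-08). Of the CST complex, which fills in the complementary strand, Ctc1 was lower in MEFs (-1.17 ± 0.047), but not by a call under median centring (-0.76), and Ten1 was not called. Stn1 lay at the threshold in both groups, with -0.98 ± 0.050 in MEFs and -1.02 ± 0.050 in iPS cells, of which the second was called, and iPS cells and MEFs differed by -0.04 ± 0.070. Its other probe was not called in iPS cells (-0.99), and the call ended without iPS replicate 1 (-0.99) and under median centring (-0.77).

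The recombination, repair and chromatin genes known to act at telomeres numbered 28, with 15 lower and 1 higher in MEFs and 9 higher in iPS cells than in ES cells. Across all tested genes 13.6% were lower in MEFs and 9.08% higher in iPS cells. Brca2, a protein of homologous recombination, read -2.81 ± 0.053 in MEFs, although a second, dimmer Brca2 probe, well above background on 1 of the 2 MEF arrays, gave -0.86 and was not called. Ercc1, a subunit of a nuclease that trims overhangs, was the gene that was higher in MEFs (1.14 ± 0.048). Zscan4c, which lengthens telomeres in mouse ES cells when it is briefly switched on, read 4.16 and 4.29 in iPS cells. It was 4.22 ± 0.072 above ES cells (adjusted p = 1.05e-08) and was not well above background in MEFs, where ES cells were at least 5.82-fold higher, with measured log2 levels of 8.66 and 5.99 and an adjusted p of 5.57e-08. A second Zscan4c probe was called higher in iPS cells too (3.04). Tcstv1, another gene of the transient state in which Zscan4c is on, was 2.16 ± 0.047 above ES cells in the iPS clone. The files name closely related Zscan4 genes, and the probes may not separate them.

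**Figure D4:**
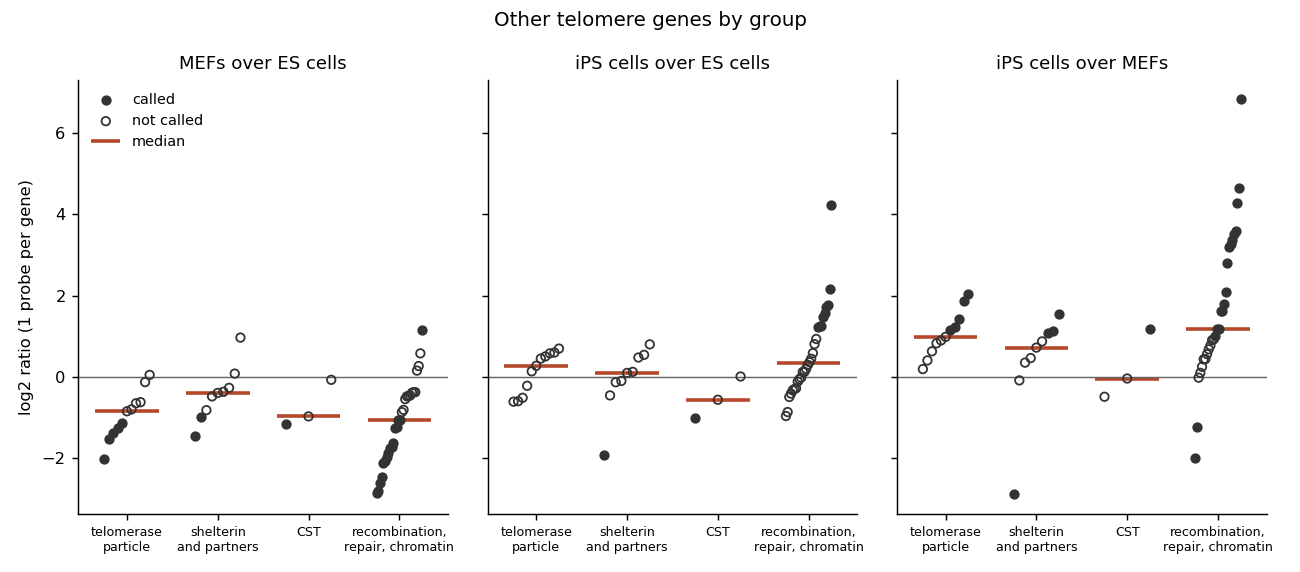
Log2 ratio (vertical axis) of the 51 other telomere genes in 3 comparisons, 1 point per gene in 4 groups, filled where called and open where not, with the group median as a bar. The recombination, repair and chromatin genes reach up to 1.14 in MEFs, the highest point between iPS cells and MEFs is Zscan4c, which has only a bound in MEFs, and the telomerase particle has no filled point between iPS and ES cells.

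Genes of dividing cells moved with the members. Of 20 proliferation genes tested, 17 were lower in MEFs than in ES cells and 0 were higher, against 13.6% of all tested genes called lower. They ranged from -2.5 (Mcm7) to -0.09 (Cdk1), with a median of -1.83. In iPS cells 1 of 20, the mitotic kinase Aurkb, was higher than in ES cells (1.32), against 9.08% of all genes, and the median was 0.32. Between iPS cells and MEFs 18 of 20 were higher in iPS cells, against 17% of all genes, with a median of 2.12. All 20 were well above background in all 3 RNAs. The part of cell division in the members' ratios was not tested, and in these cultures fewer expressing cells and less RNA per cell cannot be told apart. All 5 macrophage markers were well above background in MEFs, 2 in ES cells and 1 in iPS cells. Lyz2, the macrophage lysozyme gene, was 4.88 ± 0.068 above ES cells in MEFs, while Cd68 was below them (-1.69 ± 0.052). Of 5 endothelial markers 3 were above background in each RNA, the same 3 in ES and iPS cells but not in MEFs. Emcn was above background on both arrays in MEFs, on 2 of 4 in ES cells and on 0 of 2 in iPS cells, and was 5.07 ± 0.061 higher in MEFs than in ES cells. By any probe, Pecam1 was above background in ES and iPS cells and not in MEFs, Kdr and Tek in all 3 RNAs, and Cdh5 in none. Kdr was called lower in MEFs than in ES cells (-1.545 ± 0.049). Tek and Pecam1 were not called (-0.62 and -0.43), at probes above background on 1 and 0 of the 2 MEF arrays. A second Tek probe gave 0.05. The median of the 4 tested endothelial markers was -0.52. The part of such cells in the members' ratios was not tested.

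The genes whose 4 log2 ratios lay nearest to those of a member were named by Euclidean distance over the arrays, for the brightest tested probe of each member with a call. Nearest to Pot1a were Knl1 (distance 0.064), Ash2l (0.077) and Kif22 (0.11). Nearest to Tinf2 were Gtf2e1 (0.092), Hjurp (0.097) and Cpsf6 (0.10). Terf1 had Atf7ip2 (0.18), Sec14l4 (0.30) and, as the third, Rif1 (0.33), the largest of the distances given here. The nearness was not mutual, since Terf1 was not among the genes named for Rif1. Rif1 itself lay nearest to Brca1 (0.21), Acss1 (0.21) and Aim1l (0.24). The second Dkc1 probe was nearest to Tex9 (0.048) and Zfp566 (0.071), and the downstream Terf2 probe, itself not called, to Ppp3r1 (0.055), Lsm12 (0.059) and Ube2d2a (0.063). With 4 arrays from 1 slide, such distances rank probes and do not measure shared control.

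The calls against MEFs rest on how background was corrected on the array of MEF replicate 1. On that array 14 spots, all marked as outliers, had a local background of over 500 (694663 at most), and the background model used above was fitted without marked spots. Fitted over all spots, the model shrank that array's ratios to between -0.88 and 0.00 over the 15 member probes, while MEF replicate 2 kept its values, such as -3.06 for Rif1 A_51_P305693. The adjusted p of the 6 calls lost in MEFs over ES cells lay between 0.25 and 0.354, and that of the 8 lost between iPS cells and MEFs between 0.0629 and 0.259. Without the array of MEF replicate 1 altogether, 6 and 8 member probes were called, in a fit where the lone MEF array is assumed to vary like the iPS arrays. Centring each array on its median in place of loess shifted the median of all probes by 0.18 in MEFs and 0.15 in iPS cells over ES cells, and the share of called probes that were higher moved from 50.6% to 70.0% in MEFs and from 42.8% to 61.5% in iPS cells. The members' counts under it were 6 and 2, and 8 between iPS cells and MEFs.

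**Figure D5:**
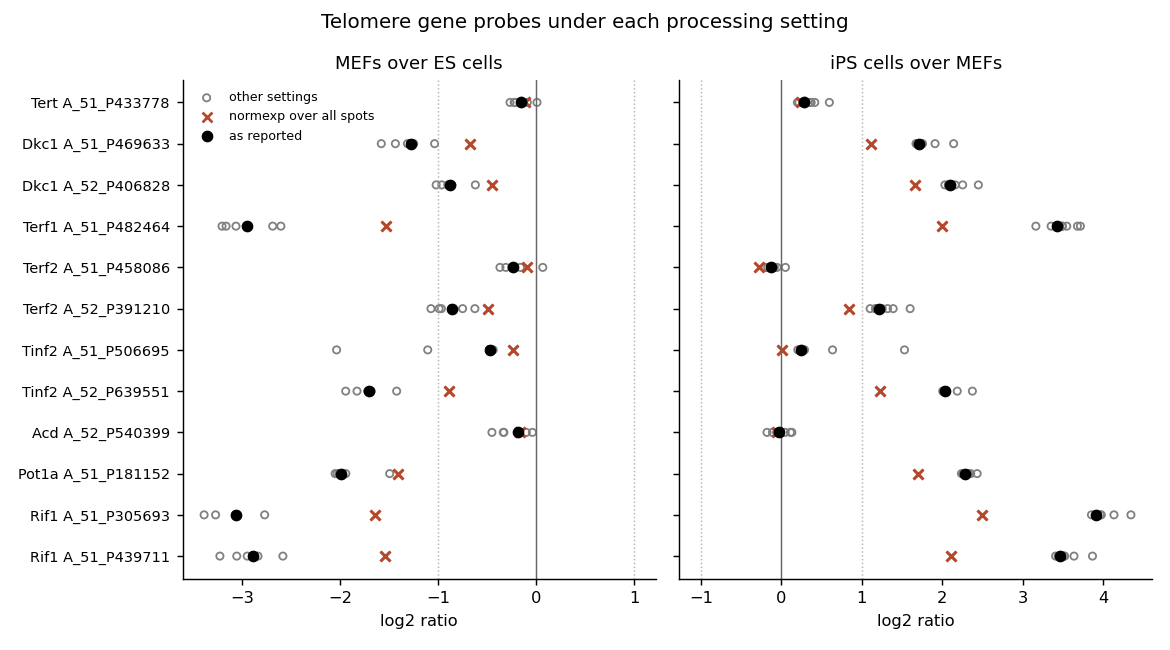
Log2 ratio (horizontal axis) of the 12 tested member probes in MEFs over ES cells (left) and iPS cells over MEFs (right), as reported (black), with the background model fitted over all spots (crosses) and under the other settings (open circles). Dotted lines mark 2-fold, and the crosses of Rif1, Terf1, Tinf2, Pot1a and Dkc1 lie nearer to 0 than the reported values.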

How the data were processed

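Total RNA (1 µg per labelling) was hybridised to 4 two-colour Agilent arrays. The authors scanned the arrays into Agilent Feature Extraction 10.5.1.1 files, per the file headers, and the deposited mean and local background intensities are not normalized. The deposited log10 ratio, which the series' value table repeats exactly, was an alternative. Probe positions are on mm8, per the file headers. Signals were background-corrected with normexp (offset 50) over spots not marked as outliers and normalized by loess (span 0.3) with controls at weight 0, in limma 3.58.1 (R 4.3.3, package version 1.17.8 of data.table). That normexp choice was made with counts under both choices known. The tested set came from 41174 gene probes, of which 27725 exceeded background clearly on every array of some RNA and 24874 of those had values on all 4 arrays. 1 coefficient per group was fitted with lmFit and eBayes (degrees of freedom were 2 residual and 4.91 prior) and checked on simulated data. The ratio against 0 leaves out the ES cells' own spread. All arrays lay on 1 slide, read in 1 scan, so position and group cannot be told apart. A probe dim on all arrays of a group gets an approximate lower bound of its fold, from per-channel levels after Aquantile scaling. Dim levels were raised to the lowest level above background on their array where they lay below it. The spread between arrays is left out of such a bound. The number of arrays limits precision. The members, the lists and the naming rule (all members, up to 6 called telomere genes per direction, up to 2 per direction from each other list, 8 partners given always) were chosen with earlier results of these data known. Pou5f1, Tcstv1, Ruvbl2, Cdk1, Cd68, Cdh5, Kdr, Tek, Pecam1, Rtel1, Terc, Ten1 and the CST genes are given to describe their list. 1 gene of the telomere list is counted there and not reported by name.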

Additional observations from a re-analysis of the deposited data

Results flagged for a closer look

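The ES level of the brighter Tinf2 probe, A_52_P639551, was lower on 1 array than on the others. On a log2 scale it read 10.08 on the array of iPS replicate 2 and 10.28, 10.30 and 10.31 on the other 3. The gap made up 0.871 of the whole range of the 4 values, above Dixon's 95% critical value for 4 samples. Chance alone gives such a gap in about 1 of 20 groups, and 12 probes were examined. The red level on the same array, 10.40, was below that of iPS replicate 1, 10.62, and the log2 ratios of both iPS arrays were 0.32 and 0.34.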

How the results depend on the processing

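Counts of called probes or genes are given for MEFs over ES cells, iPS over ES cells and iPS cells over MEFs. In that order, normexp over all spots called 100, 3317 and 2726 of all 24874 tested probes. With normexp over all spots, member probes called were 0 and 0 in the first and last (6 and 8 as reported; 1 and 2 had an unadjusted p under 0.05 in limma), and other telomere genes called were 0, 3 and 10 (24, 11 and 28 as reported). With marked spots kept as well they were 0 and 0, and 0, 6 and 12 of 52 genes, 4 of which then had another brightest probe that made 3 of the 6 and 2 of the 12 calls. Median centring gave 2 member probes in iPS over ES cells (1 as reported), and 1 probe per gene gave 4 and 5 in the first and last comparison, since fewer probes were tested and the brighter Dkc1 probe was under 2-fold in MEFs. The cause of the other shifts was not tested. Leaving out each replicate left member calls at 6, 1 and 8, and other telomere genes at 23 to 25, 10 to 11 and 26 to 30; each such fit has 1 array in a group, assumed to vary like the other group. Of the other telomere genes, median centring ended 9 calls and made 7, and 27 values turned sign over 6 settings, none called either way (0.67 at most). Among members, signs turned at small values only: Acd in iPS cells over MEFs with the scanner software's ratio (0.13) and over leave-one-out fits (-0.18 to 0.11), Terf2 A_51_P458086 with that ratio (0.05) and with median centring in MEFs (0.068), and Tert with median centring in MEFs (0.009). The replicate block, a paired fit on numbers not known to pair samples, left 6, 1 and 8 member calls and 24, 11 and 28 gene calls, and so did a crossed block (numbers' deviations correlate at -0.11). Of 597 values of single probes under alternatives, 557 kept sign and side of the threshold, 28 lost a call, 6 gained one and 6 turned sign. An offset of 0, 3-array probes and the crossed block were chosen after seeing the data. Dim probes (Tert, Acd, Tinf2 A_51_P506695) are limited by signal over background.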
